A study of Mus musculus with 4 samples.

Results

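Nuclear receptors are transcription factors that bind DNA through paired zinc fingers and, in most cases, respond to a small lipophilic ligand. Several of them set how the liver handles bile acids, cholesterol and foreign compounds. Many bind as heterodimers with a retinoid X receptor, while the orphan members without a DNA-binding domain act by binding other receptors. The 9 genes described here are the bile acid receptor FXR (Nr1h4), the small heterodimer partner SHP (Nr0b2), the liver receptor homolog LRH-1 (Nr5a2), the oxysterol receptor LXR-alpha (Nr1h3), the xenobiotic receptors PXR (Nr1i2) and CAR (Nr1i3), the hepatocyte factor HNF4A (Hnf4a), the retinoid X receptor RXR-alpha (Rxra) and the estrogen receptor alpha (Esr1). They were chosen by name, out of 18193 genes with a named probe set, with earlier results of these data known. The platform annotation gave them 20 probe sets, all of which are reported. For each gene the brightest probe set by mean log2 signal over the 4 arrays stands for the gene.

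The arrays held liver RNA of 9-month-old male F1 mice kept on chow with no intervention. The AB6F1 group (n = 2) was bred from AJ dams and B6 sires, and the B6AF1 group (n = 2) from the reciprocal mating, B6 dams with AJ sires. The crosses share their autosomal genotype and differ in the dam's X chromosome and mitochondria, the sire's Y chromosome and the parental origin of imprinted alleles. All 9 genes lie on autosomes, on 5 different chromosomes, so every mouse carried an AJ and a B6 copy of each. The comparison asks whether these receptors differed with the direction of the cross, and differences are given as AB6F1 minus B6AF1. Source identifiers of the mice fall into a separate block for each cross, so that effects of handling and of the cross cannot be told apart. Whole liver slices were used, so fewer cells of a type and less RNA per cell cannot be told apart.

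Every array had been scaled to a trimmed mean signal of 500, and the median signal ran from 75.9 to 78.0 in AB6F1 and from 67.2 to 72.8 in B6AF1. Log2 signals were compared by limma over the 11749 genes whose mean reached a signal of 60.9, with Benjamini-Hochberg adjustment over all of them. Of these genes 25 passed at an adjusted p of 0.05, which is 0.213%. The 2 arrays of each cross limit the precision, and no exact permutation test of a single gene can give a p below 0.333. Errors beside log2 differences are limma's moderated SE, and intervals are 95% confidence intervals.

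None of the 9 receptors passed limma's adjusted threshold, with adjusted p from 0.384 to 0.965. At an unadjusted p under 0.05 there were 3 of 9, against 9.72% of all genes tested. These were Nr0b2, Nr5a2 and Nr1i3, all with lower signal in AB6F1, a direction in which 3.88% of all genes had such a p. Without the intensity trend in the variance the number was 1, and with robust moderation it was 2. The signals of the crosses were fully apart for 6 of the 9 (background 41.2%), with 2 higher in AB6F1 (background 22.5%) and 4 lower (background 18.7%). The median difference of the 9 was -0.16 on the log2 scale, against 0.02 over all genes tested.

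The promoters of the 3 receptors with the smallest unadjusted p are shown because nuclear receptors regulate one another's genes, as FXR does that of SHP, through a shared half-site. Each window runs from 250 bases before to 50 bases after an annotated start in RefSeq's mouse assembly GRCm38.p6. That assembly represents C57BL/6J, and the AJ sequence was not used here. Capitals mark AGGTCA, the nuclear receptor half-site, CAAGGNCA, an extended half-site of the kind LRH-1 binds, and TATAAA, the TATA box, on either strand. CAAGGNCA overlaps AGGTCA where its N is T.
Nr0b2, chr4:133553126-133553425, plus strand: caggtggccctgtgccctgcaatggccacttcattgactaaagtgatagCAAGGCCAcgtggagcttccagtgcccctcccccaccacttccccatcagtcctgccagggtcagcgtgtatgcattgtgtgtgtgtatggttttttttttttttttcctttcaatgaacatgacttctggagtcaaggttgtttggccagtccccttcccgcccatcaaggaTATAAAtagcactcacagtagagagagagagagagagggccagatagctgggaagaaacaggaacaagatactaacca
Nr5a2, upstream start, chr1:136960399-136960698, minus strand: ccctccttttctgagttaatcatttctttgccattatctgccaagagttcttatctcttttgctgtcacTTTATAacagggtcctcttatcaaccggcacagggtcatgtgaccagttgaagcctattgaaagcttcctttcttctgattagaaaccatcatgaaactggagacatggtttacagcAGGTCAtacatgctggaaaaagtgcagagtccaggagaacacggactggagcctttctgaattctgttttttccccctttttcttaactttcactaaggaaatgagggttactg
Nr5a2, downstream start, chr1:136953581-136953880, minus strand: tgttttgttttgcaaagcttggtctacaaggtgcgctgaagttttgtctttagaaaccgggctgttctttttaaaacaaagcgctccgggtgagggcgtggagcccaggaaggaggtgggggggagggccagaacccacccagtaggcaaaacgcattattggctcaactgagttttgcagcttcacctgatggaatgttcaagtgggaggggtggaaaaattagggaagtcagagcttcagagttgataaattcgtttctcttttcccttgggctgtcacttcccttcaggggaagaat
Nr1i3, chr1:171213720-171214019, plus strand: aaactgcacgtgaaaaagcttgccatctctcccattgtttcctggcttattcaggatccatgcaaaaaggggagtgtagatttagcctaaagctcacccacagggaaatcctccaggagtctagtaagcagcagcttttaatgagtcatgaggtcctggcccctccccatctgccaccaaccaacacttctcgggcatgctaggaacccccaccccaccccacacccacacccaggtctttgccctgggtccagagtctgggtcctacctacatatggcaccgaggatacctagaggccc
The Nr0b2 window held the extended half-site with its first base at -201 and TATAAA at -28 from the start site. The upstream Nr5a2 window held AGGTCA at -64 and, on the other strand, TATAAA at -181, whereas the downstream window and the Nr1i3 window held no match. Over the 14 windows of all 9 receptors, AGGTCA was found in 3, against 16.3% of the 32851 mouse promoters in the same table. The other windows with it were 1 of Rxra and that of Nr1h4. CAAGGNCA was found in 1 window (6.71% of all promoters) and TATAAA in 2 (13.6%). The variant half-site AGTTCA, held by 14% of promoters, was found in none of the 14. These are letter matches only, and no binding was measured.

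Nr0b2 had the largest difference of the 9 genes. SHP, its product, lacks a DNA-binding domain, is induced by FXR and represses LRH-1 and HNF4A on bile acid synthesis genes. Its single probe set, 1449854_at, read 1336.2 and 3335.9 in AB6F1, against 4386.7 and 5111.3 in B6AF1. Both AB6F1 livers were below both B6AF1 livers, but they differed 2.5-fold from each other, whereas the B6AF1 livers differed 1.17-fold. The mean signal was 2336 ± 1414 in AB6F1 and 4749 ± 512 in B6AF1 (SD, n = 2 each), a log2 difference of -1.17 ± 0.38 (interval -2.06 to -0.28, limma adjusted p = 0.408). The gap of 1.32 log2 between the AB6F1 mice was wider than that of 97% of the genes tested, while the B6AF1 gap of 0.22 was wider than that of 53.8%. Leaving out AB6F1 replicate 1 gave a difference of -0.51, and leaving out AB6F1 replicate 2 gave -1.83. Without AB6F1 replicate 2, Nr0b2 was the 1 receptor of the 9 to pass (limma adjusted p = 0.000893), where 2.06% of all genes passed. That fit holds 1 AB6F1 liver, which is assumed to vary like the B6AF1 livers, since the spread comes from the B6AF1 pair and limma's moderation. AB6F1 replicate 1, the liver with the lowest Nr0b2, also held the highest summed signal of the macrophage markers. The sum was 15626 there, against 10066 in the other AB6F1 liver and 6447 and 9081 in B6AF1. Its largest part was Csf1r, at 5405.7. Cd68 and Cd14 were instead highest in AB6F1 replicate 2, at 231.3 and 213.7, against 202.9 and 146.8 in replicate 1. Summed neutrophil markers were likewise highest in AB6F1 replicate 1, at 1402, against 546 in the other AB6F1 liver and 573 and 375 in B6AF1. The neutrophil sum was carried by S100a8, S100a9 and Elane, which were highest in AB6F1 replicate 1 at 601.9, 404.8 and 212.6. Mpo and Ngp were not highest there, at 96.1 and 76.4. The part of macrophages or neutrophils in the Nr0b2 values was not tested.

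Nr1h4 encodes FXR, which bile acids activate and which induces SHP and the bile salt export pump. Its probe set 1419105_at read 3537.6 and 3381.2 in AB6F1, against 3167.4 and 3135.5 in B6AF1. The AB6F1 arrays lay just above the B6AF1 arrays, by 0.13 ± 0.11 log2 (interval -0.14 to 0.41, limma adjusted p = 0.747). Centring each array on its median removed the difference, which then was -0.0025.

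Nr5a2 encodes LRH-1, a monomeric activator of Cyp8b1 and Scarb1 that SHP represses. It was the receptor with the smallest adjusted p. Its brightest probe set, 1420410_at, read 1925.9 and 1972.1 in AB6F1, against 2461.7 and 2723.2 in B6AF1. The AB6F1 livers were nearly alike and both below the B6AF1 livers, at 0.753 times their level and a log2 difference of -0.41 ± 0.12 (interval -0.71 to -0.11, limma adjusted p = 0.384). Probe set 1456521_at read 1826.0 and 1573.4 in AB6F1, against 2012.9 and 2404.0 in B6AF1, a log2 difference of -0.38 ± 0.15. Probe set 1449706_s_at read 1092.7 and 1044.5 in AB6F1, against 1168.3 and 1136.4 in B6AF1, a log2 difference of -0.11 ± 0.14. All 3 bright probe sets thus had both AB6F1 arrays below both B6AF1 arrays, though 1449706_s_at by little. The fourth, 1449707_at, was below the filter and read 108.6 and 10.8 in AB6F1, against 111.5 and 13.1 in B6AF1. With any array left out, the brightest probe set's difference stayed between -0.48 and -0.34.

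**Figure D1:**
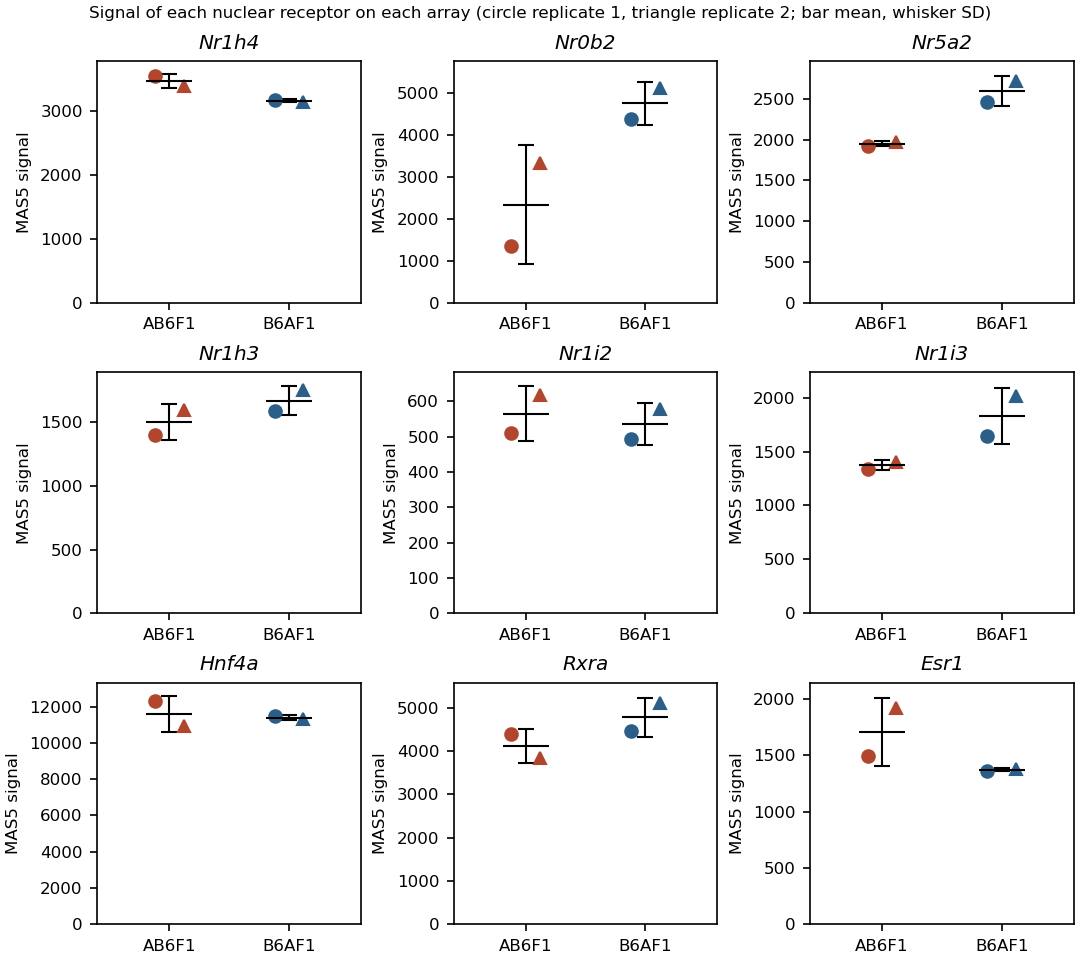
MAS5 signal (linear axis from 0) of the brightest probe set of each receptor, with AB6F1 on the left and B6AF1 on the right of each panel. Circles are replicate 1 and triangles replicate 2, horizontal bars are means and whiskers SD (n = 2). Nr0b2 had AB6F1 signals of 1336.2 and 3335.9 that are far apart, and Nr5a2 had AB6F1 signals of 1925.9 and 1972.1 that nearly coincide.

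Nr1h3 encodes LXR-alpha, which senses oxysterols and induces sterol efflux pumps and Srebf1. Its probe set 1450444_a_at read 1400.7 and 1599.8 in AB6F1, against 1591.2 and 1749.4 in B6AF1. The groups overlapped, and the log2 difference was -0.16 ± 0.14 (interval -0.49 to 0.17, limma adjusted p = 0.753).

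CAR, from Nr1i3, is held in the cytoplasm until phenobarbital-like compounds or bilirubin release it, and PXR, from Nr1i2, binds many drugs and bile acids directly. Both induce Cyp2b and Cyp3a genes. Nr1i3, read by 1425392_a_at, had signals of 1339.2 and 1403.8 in AB6F1, against 1644.8 and 2015.0 in B6AF1. Both AB6F1 livers were below both B6AF1 livers, by -0.41 ± 0.15 log2 (interval -0.76 to -0.06, limma adjusted p = 0.452), and leaving out an array gave differences between -0.56 and -0.26. Nr1i2 had 2 probe sets. The first, 1425723_at, read 509.2 and 619.1 in AB6F1, against 493.8 and 577.1 in B6AF1, a log2 difference of 0.07 ± 0.19 (interval -0.37 to 0.52, limma adjusted p = 0.923). The second, 1451807_at, read 603.5 and 511.6 in AB6F1, against 625.6 and 430.2 in B6AF1, a log2 difference of 0.10 ± 0.23. Both overlapped between the crosses, and the sign of 1425723_at turned without AB6F1 replicate 2, without B6AF1 replicate 1 and after median centring.

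Hnf4a encodes a factor that binds DNA as a homodimer, maintains hepatocyte identity and activates many apolipoprotein and clotting factor genes. Its probe sets disagreed. The brightest, 1427001_s_at, read 12291.2 and 10906.3 in AB6F1, against 11487.5 and 11314.5 in B6AF1, a log2 difference of 0.02 ± 0.12 (interval -0.25 to 0.30, limma adjusted p = 0.965). By contrast, 1427000_at read 10961.5 and 11451.7 in AB6F1, against 6464.8 and 6082.1 in B6AF1. Here both AB6F1 livers were far above both B6AF1 livers, with a 1.79-fold difference, or 0.84 ± 0.12 log2 (interval 0.57 to 1.11). When all 20100 bright probe sets were tested separately, its unadjusted p was the 38th smallest, and it missed the threshold at a limma adjusted p of 0.0623, where 0.159% of probe sets passed. None of the 17 receptor probe sets tested passed in that fit, and 6 had an unadjusted p under 0.05 (background 9.18%). Probe sets of 1 gene are not independent, and 1420410_at and 1456521_at among the 6 both read Nr5a2.

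The annotation gives 1427000_at and 1427001_s_at the same source sequence. The log2 ratio of 1427000_at to 1427001_s_at within an array was -0.17 and 0.07 in AB6F1, against -0.83 and -0.90 in B6AF1, so the probe sets changed unequally between the crosses. The remaining Hnf4a probe sets had differences near 0, and that of the brightest turned negative without AB6F1 replicate 1 or after median centring. On 1421983_s_at the signals were 5151.6 and 4898.6 in AB6F1, against 5024.6 and 5375.6 in B6AF1, a log2 difference of -0.05 ± 0.12. On 1450447_at they were 900.2 and 988.0 in AB6F1, against 766.3 and 1102.4 in B6AF1, a log2 difference of 0.04 ± 0.20. Leaving out probe sets of suffix _x_at and _s_at, which can read several transcripts, makes 1427000_at stand for the gene, with a limma adjusted p of 0.066 in that fit.

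**Figure D2:**
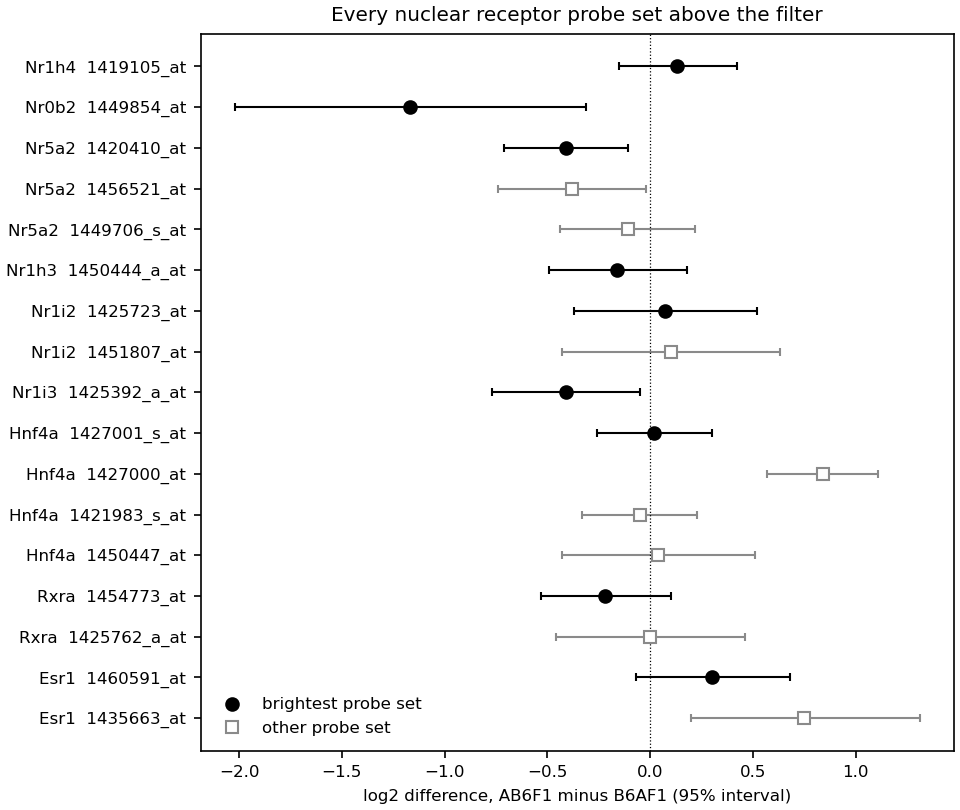
Log2 difference, AB6F1 minus B6AF1, with its 95% confidence interval for the 17 receptor probe sets above the filter, from the fit in which each probe set is tested separately. Filled circles are the brightest probe set of a gene and open squares the others. Hnf4a 1427000_at stands at 0.84, while the other 3 Hnf4a probe sets lie between -0.05 and 0.04.

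Rxra encodes the shared partner of FXR, LXR, PXR and CAR. Its brightest probe set, 1454773_at, read 4398.7 and 3833.4 in AB6F1, against 4463.0 and 5099.2 in B6AF1. The AB6F1 arrays lay below the B6AF1 arrays, the closest pair by little, with a log2 difference of -0.22 ± 0.13 (interval -0.53 to 0.10, limma adjusted p = 0.65). On 1425762_a_at the signals were 697.7 and 751.0 in AB6F1, inside the B6AF1 signals of 619.2 and 845.7, a log2 difference of 0.00 ± 0.20. Probe set 1430497_at was below the filter at 60.9 and 7.8 in AB6F1, against 8.9 and 19.9 in B6AF1.

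Esr1 encodes the main estrogen receptor of liver, which estradiol activates in both sexes. Its brightest probe set, 1460591_at, read 1494.8 and 1920.7 in AB6F1, against 1364.5 and 1380.8 in B6AF1. Both AB6F1 livers were above both B6AF1 livers, by 0.30 ± 0.16 log2 (interval -0.07 to 0.68, limma adjusted p = 0.594). The dimmer 1435663_at, from the same source sequence by the annotation, read 291.1 and 318.4 in AB6F1, against 186.0 and 175.0 in B6AF1. These groups were also apart in the same direction, by 0.75 ± 0.24 log2 (interval 0.20 to 1.31, limma adjusted p = 0.419). That p comes from the fit with every probe set tested separately, where 1460591_at had a limma adjusted p of 0.623. Probe set 1421244_at was below the filter at 68.8 and 54.5 in AB6F1, against 102.0 and 13.1 in B6AF1. Leaving out AB6F1 replicate 1 gave 0.48 for 1460591_at, and leaving out AB6F1 replicate 2 gave 0.12.

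**Figure D3:**
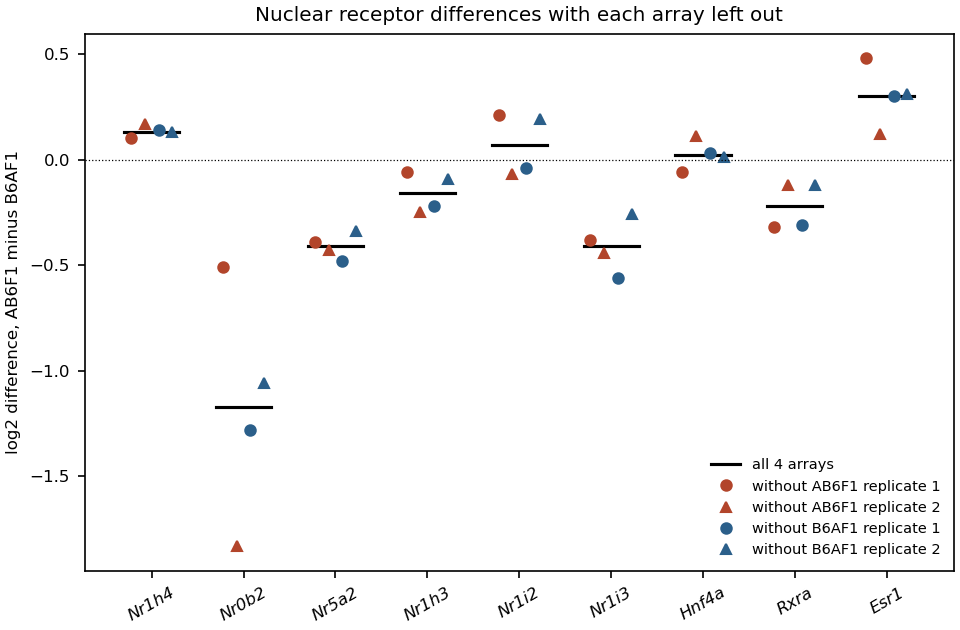
Log2 difference, AB6F1 minus B6AF1, of each receptor with all 4 arrays (black line) and with each array left out (symbols). Nr0b2 spans -1.83 to -0.51, while Nr5a2 spans -0.48 to -0.34, and Nr1i2 and Hnf4a have values on both sides of 0.

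Among the 49 nuclear receptors of the mouse, 44 had a named probe set and 34 were tested. Of the 25 tested receptors outside the 9, 13 had positive and 12 negative differences, with a median of 0.09, and none passed (limma), while 6 had an unadjusted p under 0.05 (background 9.72%). Pparg, the adipogenic receptor, read 1279.0 and 1268.5 in AB6F1, against 828.1 and 650.8 in B6AF1, a log2 difference of 0.79 ± 0.17 (limma adjusted p = 0.208). Rarb, a retinoic acid receptor, read 361.7 and 359.1 in AB6F1, against 212.5 and 189.1 in B6AF1, a log2 difference of 0.85 ± 0.22 (limma adjusted p = 0.312). The immediate early orphan receptor Nr4a3, 1 of the 6 with an unadjusted p under 0.05, read 37.8 and 42.8 in AB6F1, against 171.0 and 92.9 in B6AF1. Its AB6F1 signals lay below the filter's signal of 60.9 and it was tested through its B6AF1 signals, so no size of difference is given. Nr2c2, the orphan receptor TR4, was at -0.33 ± 0.13. The receptors with the array pattern closest to Nr0b2 were Nr6a1, Nr4a3 and Nr2f6, with root-mean-square distances of 0.55, 0.61 and 0.61 log2 over the 4 arrays after centring. The AB6F1 values of Nr4a3 in that distance are the dim ones just given. Nr6a1 was at -0.34 ± 0.30 and Nr2f6 at -0.31 ± 0.13. Being nearest did not make these genes alike to Nr0b2, whose AB6F1 signals of 1336.2 and 3335.9 were far apart. The AB6F1 signals were 168.9 and 213.4 for Nr6a1 and 2470.7 and 2627.6 for Nr2f6, and those of Nr4a3 were also close together.

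Coregulators, which receptors recruit to activate or silence genes, gave no call. Of 12 tested, 9 had positive and 3 negative differences, the median was 0.12, none passed limma and 0 had an unadjusted p under 0.05. The 4 with the smallest p were Ppargc1a at -0.26 ± 0.17, the corepressor deacetylase Hdac3 at 0.18 ± 0.14, the deacetylase Sirt1 at 0.26 ± 0.21 and the acetyltransferase Ep300 at 0.19 ± 0.16. Other hepatocyte transcription factors had 5 positive and 3 negative differences of 8 tested, a median of 0.14, none past the threshold and 0 with an unadjusted p under 0.05. Cebpb was at 0.36 ± 0.18, Cebpa at 0.15 ± 0.11, Foxa3 at 0.53 ± 0.40 and Foxa2 at -0.22 ± 0.18. Foxa3 read 3992.2 and 1503.3 in AB6F1, against 1737.9 and 1652.5 in B6AF1.

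Target genes of FXR had mostly negative differences, without a call. Differences were negative for 5 of 7 tested and their median was -0.35, and the arrays were apart and lower in AB6F1 for 4 (background 18.7%). None passed limma, and 3 had an unadjusted p under 0.05, all lower in AB6F1 (background 3.88%). The list mixes genes that FXR induces with genes that it represses through SHP. Cyp8b1, the sterol 12-alpha-hydroxylase that SHP represses and LRH-1 activates, read 6129.5 and 10535.1 in AB6F1, against 13867.9 and 15376.8 in B6AF1. Its AB6F1 signals were both lower and, like those of Nr0b2, lowest in replicate 1, with a log2 difference of -0.86 ± 0.24 (limma adjusted p = 0.342). Slc10a1, the sinusoidal bile acid importer NTCP, read 20360.9 and 20535.3 in AB6F1, against 26810.7 and 26706.2 in B6AF1, a log2 difference of -0.39 ± 0.11 (limma adjusted p = 0.349). Abcb11, the bile salt export pump that FXR induces, was at -0.37 ± 0.11, and the FGF receptor Fgfr4 at -0.35 ± 0.16. Cyp7a1, the rate-limiting enzyme of bile acid synthesis, read 5126.5 and 1291.5 in AB6F1, against 2632.2 and 1355.7 in B6AF1, so that the AB6F1 livers enclosed both B6AF1 livers.

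LRH-1 targets shared Cyp8b1 and Cyp7a1 with that list, and Abcg5 and Abcg8 with the LXR targets. Differences were negative for 4 of 5 tested and their median was -0.40, none passed limma and 3 had an unadjusted p under 0.05, all lower in AB6F1 (background 3.88%). Scarb1, the HDL receptor, read 5121.2 and 5095.7 in AB6F1, against 5831.3 and 7916.6 in B6AF1, a log2 difference of -0.41 ± 0.16 (limma adjusted p = 0.482). The sterol export half-transporters Abcg5 and Abcg8 were at -0.38 ± 0.16 and -0.40 ± 0.20. Of 10 LXR targets tested, 7 had positive and 3 negative differences, with a median of 0.08, none passed limma and 1 had an unadjusted p under 0.05 (background 9.72%). Fasn, fatty acid synthase, was at 0.71 ± 0.31, and the phospholipid transfer protein Pltp at 0.62 ± 0.29. Fasn read 17853.0 and 19126.5 in AB6F1, against 16396.7 and 7823.0 in B6AF1. Pltp read 16733.2 and 23533.7 in AB6F1, against 17506.4 and 9516.8 in B6AF1, so its groups overlapped. Both were much lower in B6AF1 replicate 2 than in the other B6AF1 liver.

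Targets of CAR and PXR went both ways. Of 12 tested, 8 had negative and 4 positive differences, with a median of -0.11, none passed limma and 3 had an unadjusted p under 0.05 (background 9.72%). Abcc4, an efflux pump, read 306.8 and 638.7 in AB6F1, against 66.4 and 72.0 in B6AF1, a log2 difference of 2.68 ± 0.39 (limma adjusted p = 0.072). Its B6AF1 signals were just above the filter's signal of 60.9, so the size of that difference is uncertain. Ces2a, a carboxylesterase, read 8707.1 and 10773.6 in AB6F1, against 17540.6 and 17045.2 in B6AF1, a log2 difference of -0.84 ± 0.14 (limma adjusted p = 0.116). The cytochromes Cyp2c37 and Cyp2c29 were at -0.59 ± 0.16 and -0.25 ± 0.12. HNF4A targets had negative differences for 11 of 13 tested, with a median of -0.12, none past the threshold in limma and 0 with an unadjusted p under 0.05. Tat, tyrosine aminotransferase, was at -0.60 ± 0.28, Apoa4 at 0.51 ± 0.30, Pck1 at -0.19 ± 0.12 and G6pc at -0.39 ± 0.26. Like Nr0b2, Tat and G6pc were lowest in AB6F1 replicate 1. Tat read 9910.8 and 19077.5 in AB6F1, against 21430.8 and 20151.1 in B6AF1. G6pc read 3897.4 and 7250.5 in AB6F1, against 7079.9 and 6828.7 in B6AF1. Apoa4 was high in AB6F1 replicate 2 only, at 5151.2 and 10308.0 in AB6F1, against 5771.6 and 4540.9 in B6AF1.

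**Figure D4:**
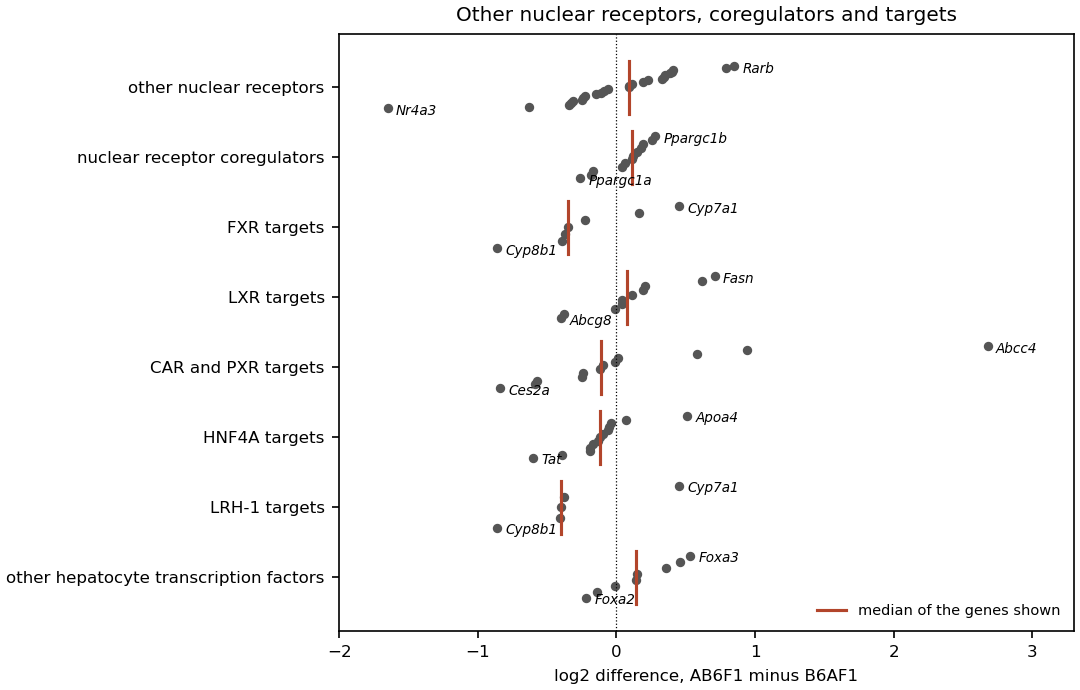
Log2 difference, AB6F1 minus B6AF1, of each tested gene (point) in the lists of other nuclear receptors, coregulators, receptor targets and hepatocyte factors, with the lowest and highest gene of each list named and the median as a vertical line. The FXR and LRH-1 target lists have medians of -0.35 and -0.40, and Abcc4 stands alone at 2.68, with B6AF1 signals just above the filter. Nr4a3, the lowest of the other nuclear receptors, had AB6F1 signals below the filter's signal, so its place is uncertain. Cyp7a1, Cyp8b1, Abcg5 and Abcg8 each stand in 2 lists.

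Markers of liver cell types were read on the same arrays. Differences of all 10 tested hepatocyte markers were negative (median -0.17), where 46.5% of all genes tested had a negative difference. Their summed signal was 342047 and 316560 in AB6F1, against 341600 and 389463 in B6AF1. Ass1 among them was read by a dim probe set, at 117.5 and 133.3 in AB6F1, against 197.5 and 140.8 in B6AF1. Tat and Ttr also stand in the HNF4A target list. Alb, albumin, was at -0.16 ± 0.13. The difference of 10 of 10 macrophage markers was positive, with a median of 0.84. Stellate cell markers were positive for 10 of 11, with a median of 0.77 and 2 past limma, both higher (background 0.213%). They summed to 15991 and 19593 in AB6F1, against 12057 and 11198 in B6AF1. Endothelial markers were positive for 5 of 8 (median 0.20), cholangiocyte markers for 3 of 3 (median 0.42), lymphocyte markers for 1 of 3 (median -0.46) and neutrophil markers for 3 of 5 (median 0.42). Pancreatic acinar markers were positive for 2 of 3, with a median of 0.09 and 1 lower past limma (background 0.213%). That marker was Cela1, which read 1458.5 and 1675.1 in AB6F1, against 6574.1 and 6805.5 in B6AF1. The smallest signal of any marker on an array was 3.7, for a cholangiocyte marker, and no detection calls were used. Below the filter lay the macrophage markers Marco, Itgam and Timd4, 4 lymphocyte, 2 cholangiocyte, 2 acinar, 1 endothelial and 1 neutrophil marker. The part of these cell types in the receptor differences was not tested.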

How the data were processed

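Per the labels' protocols, liver RNA of 4 male mice was made into biotinylated cRNA and read on Affymetrix arrays. The deposited intensity of each probe set is the signal of MAS5, on a linear scale, as the submitters' processing notes name it without a version. From the values, each array was scaled to a mean of 500 after the lowest and highest 2% are dropped, which hides any change common to all transcripts. Detection calls were not used here.

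Of 45101 probe sets, 34945 had a single symbol, 932 several and 9160 none; 64 were controls. Symbols were updated or kept through gene identifiers for 34754. Each gene was read by its brightest probe set, and genes with a mean log2 signal below the median of all probe sets were left out without regard to group. All 9 receptors passed. Of their 20 probe sets, 17 passed. Log2 signals, with no pseudocount, were fitted in limma 3.58.1 (R 4.3.3, lmFit, eBayes with trend, two-sided; 4.97 prior degrees of freedom); the step was tested on simulated data. The labels call the mice biological replicates.

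The receptors, target lists and markers were chosen with earlier results of these data known. Named genes are the 9 receptors, up to 4 tested genes of smallest p from each list, the 3 nuclear receptors nearest to the receptor of largest difference, and Alb. Cyp7a1 and the cell type markers named besides Alb and Tat fall outside this rule, having been picked once their values were known. Alternatives changed the normalization, added 16 to the signal, changed the filter, the probe sets, the variance moderation, the replicate block and the threshold, or left out each array. Promoters came from RefSeq (GRCm38.p6), and all 9 receptors matched by symbol.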

Additional observations from a re-analysis of the deposited data

How the results depend on the processing

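Of 135 values of the 9 receptors under 15 alternatives, 129 kept their sign and 6 did not. Changing the filter, the variance moderation or the replicate block, or testing probe sets separately, cannot alter a log2 difference. Those alternatives kept every sign by construction, so the count of 129 overstates how stable the signs were. Median centring gave -0.0025 for Nr1h4, -0.06 for Nr1i2 and -0.11 for Hnf4a; it moved the median of all genes by -0.14 log2. With an array left out, Nr1i2 ran from -0.07 to 0.21, and was at -0.04 without B6AF1 replicate 1, and Hnf4a ran from -0.06 to 0.11. With probe sets of suffix _x_at or _s_at dropped, Hnf4a was at 0.84, because another probe set then stood for it. No receptor passed under any alternative except Nr0b2 without AB6F1 replicate 2, so the number of receptors past the threshold ran from 0 to 1 with an array left out.

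The count of all genes past the threshold, 25, was 49 with median centring, 0 without the trend, 62 with the replicate block and 46 at a threshold of 0.1. It was 1 without either B6AF1 array, 79 without AB6F1 replicate 1 and 242 without AB6F1 replicate 2. The cause was not tested. The labels number the replicates but give no pairing, and same-numbered arrays deviated with a correlation of -0.03 across genes; the replicate block changed no receptor's call. Dim probe sets and 2 arrays a group limit what can be detected.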
